A study of Mus musculus with 4 samples.

Results

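Expression of the genes of cholesterol synthesis and of its sterol-sensing control was examined in mouse lens epithelium with and without ultraviolet B (UVB) irradiation. The genes were taken by symbol from a list of 26, and 24 of them had a probe set annotated to that gene alone, out of 19938 genes measured in this way. Where a gene had several such probe sets, the one with the highest mean signal was used. Lens epithelia of UVB-irradiated right eyes were compared with those of the left eyes of the same animals, which were covered with aluminum foil, in 8-week-old male C57BL/6 mice with no genetic modification named, 24 h after a dose of 30 mJ/cm2. Both eyes therefore shared the anesthesia and the animal. Each of 2 independent experiments gave 1 array per condition, or 2 arrays per group. The methods name 3 mice and do not say if their RNA was pooled on an array.

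Cholesterol is built from acetyl-CoA through the mevalonate pathway to farnesyl diphosphate, then through squalene to lanosterol, and finally by a series of demethylations, reductions and isomerizations to cholesterol. The enzymes are transcribed together by the sterol regulatory element binding proteins (SREBPs). When sterols are scarce, the escort protein SCAP carries the SREBPs from the endoplasmic reticulum to the Golgi, where proteases release their active part, whereas INSIG proteins hold SCAP back when sterols are plentiful. The lens has an unusually cholesterol-rich plasma membrane, and inherited defects of several of these enzymes, lanosterol synthase among them, are known to cause cataract in people.

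The values were log2 signals that the authors had normalized. In all 28944 probe sets the 2 arrays of experiment 1 and the 2 arrays of experiment 2 had the same summed signal within 0.01, which means that both experiments had been brought to the same mean signal in every probe set. UVB was therefore compared with control in limma with a term for the experiment (the block), so that each irradiated eye was set against the covered eye, and the fit without the block is named where it differs. Because of the equal means, a gene that was lower in both experiments is exactly a gene whose UVB arrays all lay below its control arrays, and likewise for higher. The smallest p of an exact permutation test with 2 arrays a group is 0.333 if the pairs are ignored, and it is larger if they are kept.

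The tissue labels were checked on marker genes. All 10 lens epithelium markers were measured, with a summed linear signal of 33504 and 33784 in the UVB arrays of experiments 1 and 2, against 33728 and 33474 in the control arrays. For 10 lens fiber markers the sums were 92948 and 92073 after UVB, against 93695 and 94456 in control. Retinal markers were present and higher after UVB in both experiments, in 13 of 13 photoreceptor genes (sums of 13134 and 15954 after UVB, against 8576 and 7079 in control) and in 8 of 8 genes of the retinal pigment epithelium (5316 and 4948, against 1944 and 2081). Of 5 Müller glia genes, 4 were higher in both experiments (9342 and 10625, against 8206 and 7233). Among them Apoe had the highest signal, and Rlbp1 is also on the retinal pigment epithelium list. Of 6 genes of cornea and conjunctiva, 1 was higher and 2 were lower in both (3818 and 3607, against 3717 and 3888). The corneal list differed between the experiments, with a median difference of 0.595 in experiment 1 and −0.16 in experiment 2. The keratin genes Krt5, Krt6a and Krt12 had log2 differences of 1.10, 0.93 and 0.86 in experiment 1, against −0.23, −0.27 and 0.04 in experiment 2. Krt14, Krt13 and Aldh3a1 had 0.33, −0.01 and −0.09 in experiment 1, against −0.08, −0.51 and −0.09 in experiment 2. None of these markers was at 0. The methods describe the removal of retinal tissue, and the authors believe that Otx2 raised retina-related genes in the lens cells. Retinal cells in the samples and retinal genes expressed by lens cells cannot be told apart here. The retinal tissues express sterol genes too, and the part of the retinal marker difference in the values below was not tested. In tissue samples, fewer cells of a type and less RNA per cell cannot be told apart.

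The sterol genes had high signals in these lens epithelium samples. Lens epithelium markers had a median percentile of 97.3, lens fiber markers 99.8 and photoreceptor markers 77.5. The part of each tissue in the sterol gene signals was not tested. All 24 had signals above the array median in all 4 arrays, as did 52.8% of all genes, and 19 of the 24 were above the 75th percentile in all 4 arrays, as were 26.1% of all genes. Their median position over all genes was the percentile of 84.4. Insig1 stood at the percentile of 98.9, Fdft1 at 97.3 and Mbtps1 at 94.8. At the other end, Stard4 stood at 55.9, Tm7sf2 at 57.5 and Pmvk at 60.9. A signal also depends on how well a probe set binds, so this order is one of signals and not of transcript amounts. The SREBP control genes occupied percentiles 86.3 to 98.9, and the enzymes from lanosterol to cholesterol 57.5 to 88.2.

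**Figure D1:**
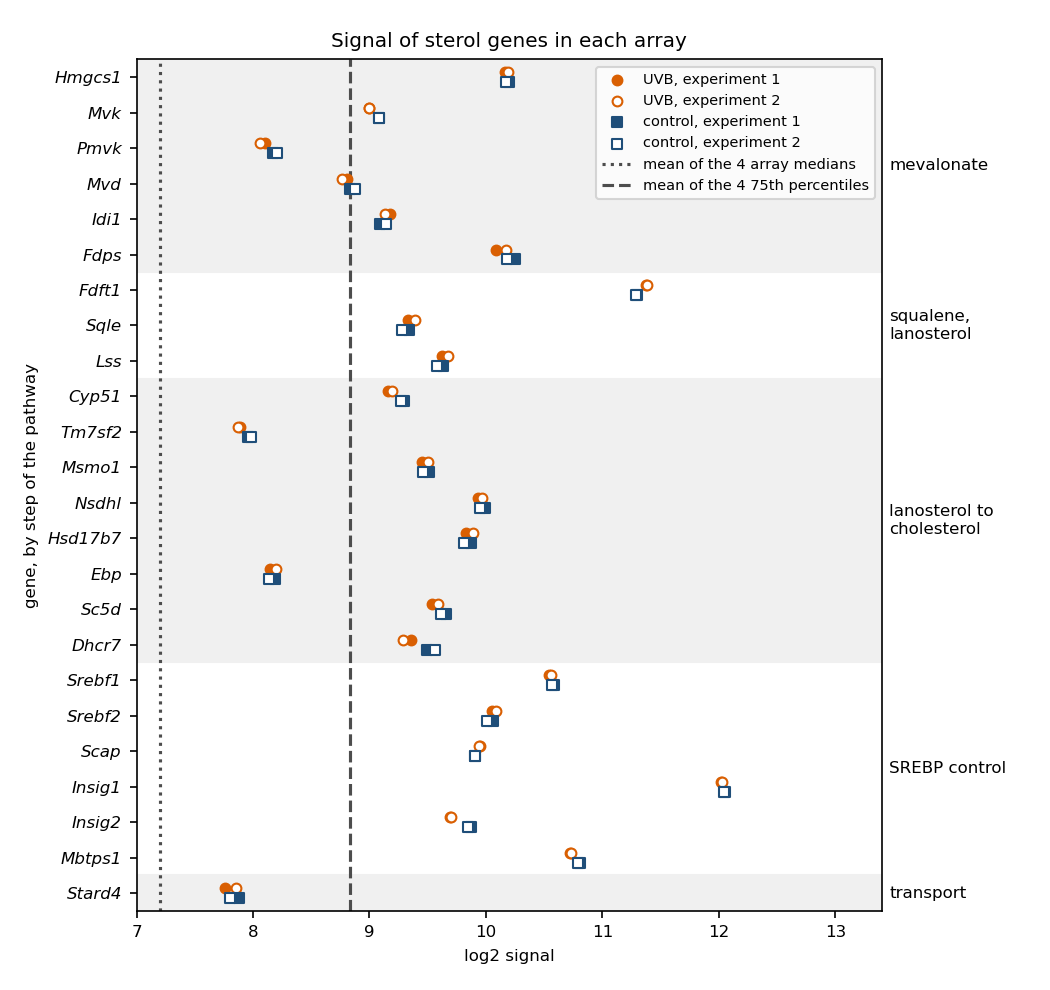
Log2 signal (horizontal) of the 24 sterol genes (vertical, by step of the pathway) in each of the 4 arrays, with UVB as circles and control as squares, experiment 1 filled and experiment 2 open. Open marks can cover filled ones, the vertical lines are the mean array median (7.205) and the mean 75th percentile (8.835), and every gene lies right of the first.

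No sterol gene passed an adjusted p of 0.05 in limma with the experiment as a block, where 0% of the 19938 genes did (lowest adjusted p = 0.357), although 2625 genes had an unadjusted p under 0.05. By that unadjusted p, 1 of the 24 was lower, against 8.03% of all genes, and 0 were higher, against 5.14%. The mean differences between UVB and control ran from −0.20 in Dhcr7 to 0.08 in Fdft1 on the log2 scale. All 24 lay within 0.2 of 0, as did 90.6% of all genes. The median difference of the 24 was −0.0225, and that of all genes −0.025. The 95% intervals of the single differences had a median half-width of 0.158 and reached down to −0.418 (Dhcr7) and up to 0.245 (Sqle). At the fold (1.8) and unadjusted p (0.01) that the methods set, 0 of the 24 and 0.0802% of all genes passed with the block. Without the block, adjusted p-values under 0.05 were given to 2 sterol genes as lower (12.0% of all genes), Insig2 and Mvk, and to 1 as higher (6.19% of all genes), Fdft1. That fit counts 2 residual degrees of freedom, whereas the equal experiment means leave 1.

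More sterol genes were lower than higher after UVB, as were more of all genes. In both experiments 12 of the 24 genes were lower after UVB (against 39.5% of all genes), 2 were higher (8.33%, against 22.6%), and 10 had opposite signs in the 2 experiments (41.7%, against 37.9% with opposite signs or a zero). Among the 10521 genes with signals above the array median in all arrays, 43.2% were lower and 20.9% higher in both. When the arrays were scaled to one 75th percentile, 8 were lower and 5 higher in both, against 31.5% and 29.0% of all genes. The excess of lower genes lay in experiment 1, in which 21 of the 24 were lower after UVB (87.5%, against 55.4% of all genes). The 3 that were not were Idi1, Fdft1 and Scap. In experiment 1 the 75th percentile of the UVB array was 8.82 and that of the control array 8.85. Sqle, Lss and Srebf2 differed by only −0.01 there, and the count of 21 was not repeated after scaling. Of the corneal list (median 0.595), Krt5, Krt6a, Krt12 and Krt14 were higher in experiment 1, whereas Krt13 and Aldh3a1 were not. The median of the retinal pigment epithelium list was 1.37 in experiment 1 and 0.805 in experiment 2. That of the photoreceptor list was 0.67 and 1.12. The part of these tissues in the count was not tested. In experiment 2, 13 of the 24 were lower (54.2%, against 58.4%). The median difference of the 24 was −0.05 in experiment 1 and −0.01 in experiment 2, against −0.02 and −0.03 over all genes.

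**Figure D2:**
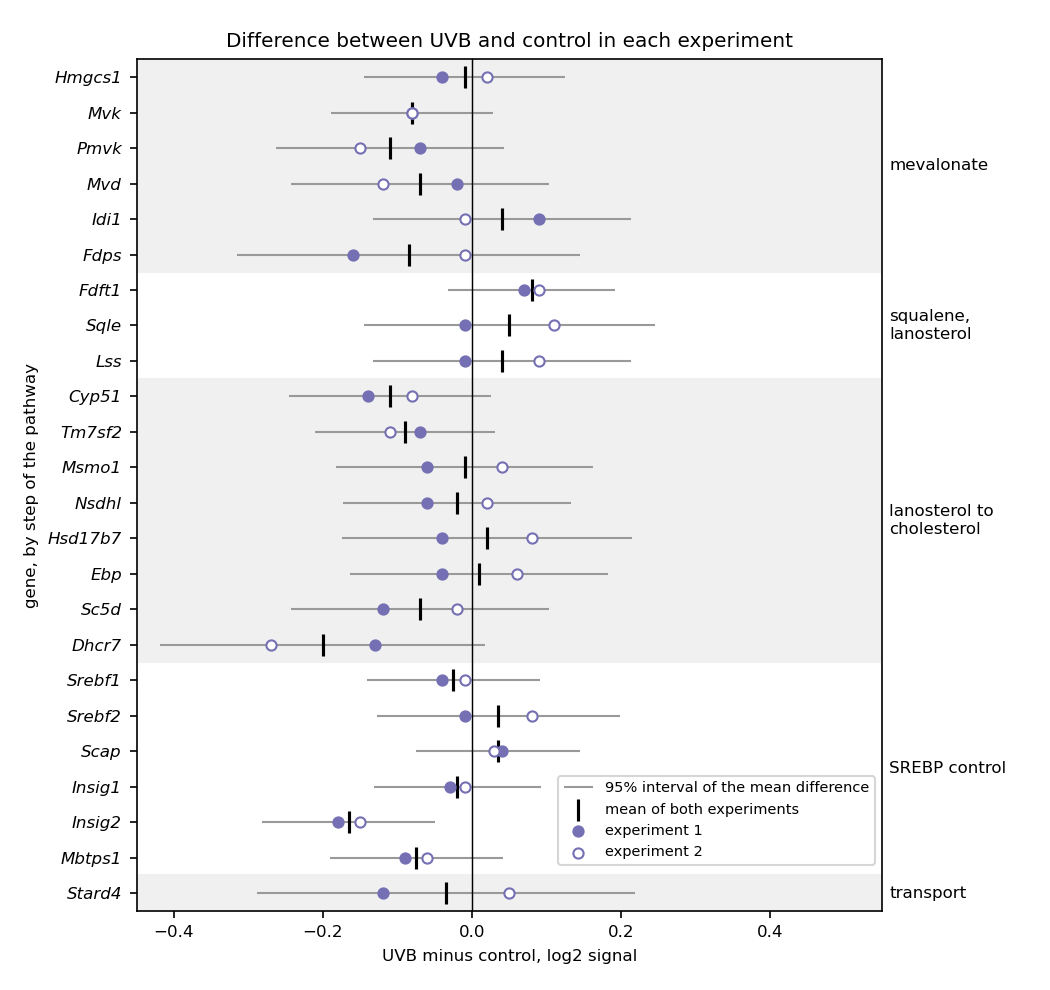
Difference in log2 signal, UVB minus control (horizontal), of each sterol gene (vertical) in experiment 1 (filled), experiment 2 (open) and their mean (bar), with the 95% interval of limma with the experiment as a block (line). Only the interval of Insig2 lies wholly on one side of 0, and the pairs of Scap and Fdft1 are the ones wholly right of it.

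In the mevalonate pathway, 4 of 6 measured enzymes were lower after UVB in both experiments and 0 were higher (against 39.5% and 22.6% of all genes), with a median difference of −0.075. Hmgcs1, the synthase that makes HMG-CoA, had log2 signals of 10.16 and 10.19 in the UVB arrays of experiments 1 and 2, against 10.20 and 10.17 in control. The groups overlapped, and the mean difference was −0.01 (95% interval −0.145 to 0.125), with a positive sign (0.01 and 0.005) when 75th percentiles were set equal or the arrays were quantile normalized. The 3 enzymes that phosphorylate and decarboxylate mevalonate were each lower in both experiments. Mvk, mevalonate kinase, had signals of 9.00 and 9.00 after UVB, against 9.08 and 9.08 in control. Its difference of −0.08 was thus equal in both experiments (standard error 0.0273, adjusted p = 0.371, or 0.0287 without the block). Pmvk, phosphomevalonate kinase, had 8.10 and 8.06 after UVB, against 8.17 and 8.21 in control, a difference of −0.11 (standard error 0.0385, limma's adjusted p = 0.371). These 2 kinases act one after the other. Mvd, the decarboxylase that follows, had differences of −0.02 in experiment 1 and −0.12 in experiment 2. Idi1, which interconverts the 2 isoprene units, was higher in experiment 1 by 0.09 and lower in experiment 2 (−0.01), and a second probe set of the gene gave 0 and −0.03. Fdps, farnesyl diphosphate synthase, had 10.09 and 10.17 after UVB, against 10.25 and 10.18 in control. Nearly all of its difference of −0.085 lay in experiment 1 (−0.16), whereas experiment 2 gave −0.01.

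The 3 enzymes from farnesyl diphosphate to lanosterol had positive mean differences. Of these, 1 was higher in both experiments (against 22.6% of all genes) and 2 had opposite signs in the 2 experiments. Fdft1, squalene synthase, had log2 signals of 11.37 and 11.38 after UVB, against 11.30 and 11.29 in control. Its UVB arrays lay above its control arrays, with a difference of 0.08 (standard error 0.0281, adjusted p = 0.371, or 0.0365 without the block). A second probe set of Fdft1 gave 0.03 in experiment 1 and 0.11 in experiment 2. Sqle, the squalene epoxidase that carries out the first oxygenation of the pathway, had 9.33 and 9.39 after UVB, against 9.34 and 9.28 in control. Its difference was −0.01 in experiment 1 and 0.11 in experiment 2. Lss, lanosterol synthase, which closes the sterol rings, showed nearly the same pair of values, −0.01 and 0.09. The groups of Sqle and Lss overlapped.

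Among the 8 enzymes from lanosterol to cholesterol, 4 were lower after UVB in both experiments (against 39.5% of all genes) and 4 had opposite signs, with a median difference of −0.045. Dhcr7, the terminal reductase that yields cholesterol and whose substrate is also the precursor of vitamin D in skin, had the lowest mean difference of the 24 genes. Its signals were 9.36 and 9.29 in the UVB arrays, against 9.49 and 9.56 in the control arrays. The difference was −0.13 in experiment 1 and −0.27 in experiment 2, with a mean of −0.20 (0.871-fold, standard error 0.0547, limma's unadjusted p = 0.0591, adjusted p = 0.357). This placed Dhcr7 at the percentile of 4.9 among the differences of all genes. Cyp51, the lanosterol demethylase, had 9.16 and 9.19 after UVB, against 9.30 and 9.27 in control, a difference of −0.11 (standard error 0.034, adjusted p = 0.361 in limma). Tm7sf2, a sterol reductase that acts just after Cyp51, had 7.89 and 7.87 after UVB, against 7.96 and 7.98 in control, or −0.09. The groups of these 2 genes did not overlap. Sc5d, a sterol desaturase, had differences of −0.12 in experiment 1 and −0.02 in experiment 2. The other 4 had differences of −0.06 to −0.04 in experiment 1 and of 0.02 to 0.08 in experiment 2. They were Msmo1 and Nsdhl, which take part in removing the methyl groups, Hsd17b7, the ketosteroid reductase of the same step, and Ebp, an isomerase of the ring double bond. Hsd17b7 had 9.83 and 9.89 after UVB, against 9.87 and 9.81 in control, so that its groups overlapped.

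Of 6 measured genes of SREBP control, 4 were lower after UVB in both experiments and 1 was higher (against 39.5% and 22.6% of all genes), with a median difference of −0.0225. Insig2 had log2 signals of 9.69 and 9.70 in the UVB arrays, against 9.87 and 9.85 in the control arrays. The difference was −0.18 in experiment 1 and −0.15 in experiment 2, with a mean of −0.165 (0.892-fold, 95% interval −0.281 to −0.049). Insig2, whose protein retains SCAP in the endoplasmic reticulum, was the only one of the 24 genes with an unadjusted p under 0.05 in limma with the block. This unadjusted p was 0.0244, and limma's adjusted p was 0.357 with the block and 0.0238 without it. Insig1, the other INSIG gene and itself a classical SREBP target, had 12.02 and 12.03 after UVB, against 12.05 and 12.04 in control. Its difference was −0.02 (95% interval −0.132 to 0.092), and the difference between the 2 INSIG genes was not tested. Scap had 9.95 and 9.94 after UVB, against 9.91 and 9.91 in control, or 0.035 (standard error 0.0275). Mbtps1, the first of the 2 Golgi proteases that cut the SREBPs, had 10.72 and 10.73 after UVB, against 10.81 and 10.79 in control, or −0.075 (standard error 0.0291, limma's adjusted p = 0.389). Its groups did not overlap.

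The 2 transcription factor genes had mean differences of −0.025 and 0.035. Srebf1, which encodes the SREBPs that favor fatty acid synthesis, had 10.54 and 10.56 after UVB, against 10.58 and 10.57 in control, or −0.025. Srebf2, whose product favors sterol synthesis, had 10.05 and 10.09 after UVB, against 10.06 and 10.01 in control, or 0.035 (95% interval −0.128 to 0.198). Its sign differed between the experiments (−0.01 and 0.08). Another probe set annotated to Srebf2 together with 3 other genes gave −0.04 and 0.05 and was not assigned. Stard4, a soluble carrier of cholesterol between membranes, differed most between the experiments. It had 7.76 and 7.85 after UVB, against 7.88 and 7.80 in control, or −0.12 in experiment 1 and 0.05 in experiment 2. The remaining 2 listed genes had no probe set of their own in the annotation used here. Mbtps2, the second protease, shared its probe set with Yy2 (9.73 and 9.76 after UVB, against 9.76 and 9.72 in control), and Acat2, a thiolase of the first step, was not matched to a probe set.

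**Figure D3:**
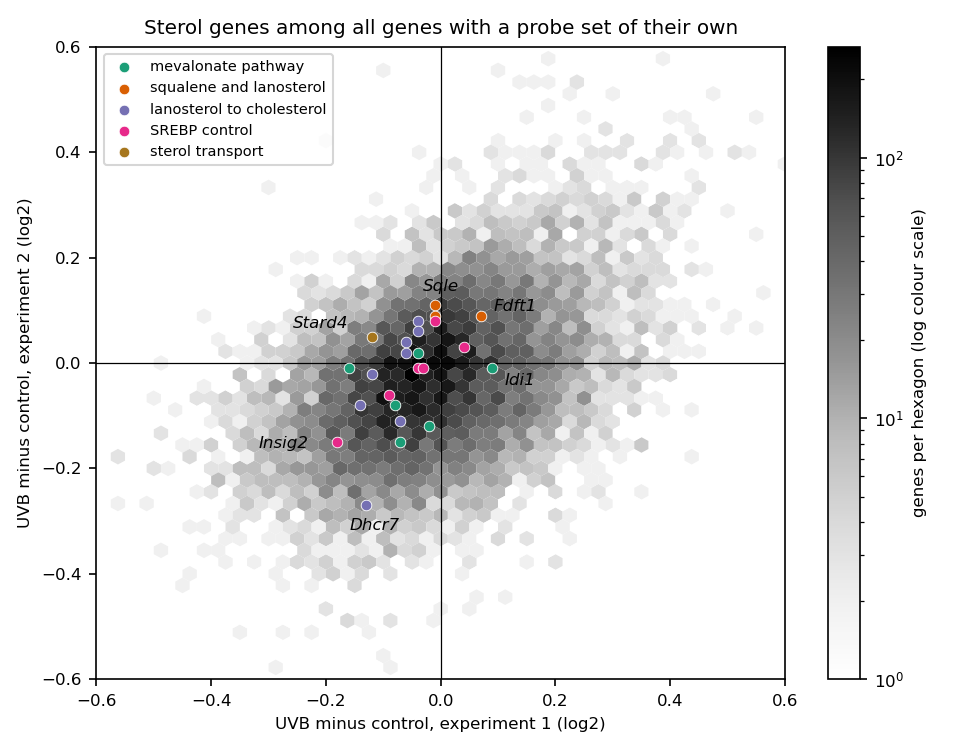
Difference in log2 signal, UVB minus control, in experiment 1 (horizontal) and experiment 2 (vertical), with the sterol genes as colored points over the density of all genes (grey, log color scale). The frame of 0.6 on each side holds 19668 genes and leaves out 270, and 12 sterol genes lie below and left of 0 on both axes, against 2 above and right.

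The promoters of Insig2, Insig1, Dhcr7 and Hmgcs1 are shown for the sequence context of the 2 genes with the lowest differences, of the paired INSIG gene and of the single gene with the element searched for. The windows hold 250 bases before and 50 after a transcription start, 5′ to 3′ along the gene, from RefSeq annotation of GRCm38.p6. Insig2 and Dhcr7 have 3 annotated starts each, and the one shown is the one whose window held a match. Capitals mark the core of a sterol regulatory element, TCACNCCAC, which SREBPs bind, and the box CCAAT, which the SREBP partner NF-Y binds and which reads ATTGG where it lies on the other strand.
Insig2 promoter (chr1:121332540-121332839, - strand): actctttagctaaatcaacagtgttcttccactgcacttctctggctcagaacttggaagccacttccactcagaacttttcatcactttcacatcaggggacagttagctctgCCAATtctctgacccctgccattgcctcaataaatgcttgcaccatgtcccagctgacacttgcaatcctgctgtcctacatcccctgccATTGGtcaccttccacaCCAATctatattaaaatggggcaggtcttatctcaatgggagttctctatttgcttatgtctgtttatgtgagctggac
Insig1 promoter (chr5:28071162-28071461, + strand): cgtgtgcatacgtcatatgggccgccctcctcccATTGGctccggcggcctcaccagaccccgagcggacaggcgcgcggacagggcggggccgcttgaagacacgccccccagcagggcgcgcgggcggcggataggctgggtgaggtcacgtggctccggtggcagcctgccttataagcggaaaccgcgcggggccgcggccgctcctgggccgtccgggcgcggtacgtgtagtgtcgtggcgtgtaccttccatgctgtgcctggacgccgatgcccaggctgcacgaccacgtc
Dhcr7 promoter (chr7:143829964-143830263, + strand): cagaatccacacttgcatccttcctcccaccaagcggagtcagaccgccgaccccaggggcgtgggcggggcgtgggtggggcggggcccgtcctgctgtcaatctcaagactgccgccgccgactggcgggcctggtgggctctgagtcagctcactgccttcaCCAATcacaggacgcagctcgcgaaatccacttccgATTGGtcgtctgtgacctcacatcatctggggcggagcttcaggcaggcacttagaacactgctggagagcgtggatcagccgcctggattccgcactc
Hmgcs1 promoter (chr13:119690101-119690400, + strand): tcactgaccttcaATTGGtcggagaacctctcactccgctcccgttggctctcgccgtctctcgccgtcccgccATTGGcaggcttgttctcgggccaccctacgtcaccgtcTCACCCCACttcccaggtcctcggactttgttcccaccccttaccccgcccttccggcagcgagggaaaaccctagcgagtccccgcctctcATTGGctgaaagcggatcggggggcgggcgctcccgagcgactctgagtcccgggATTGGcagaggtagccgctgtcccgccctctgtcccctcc
Both motifs were searched on both strands, and their matches did not overlap in these genes. Of the 24 genes, 20 had a promoter window in the table. A CCAAT box was found in 18 of these 20, against 41.7% of 15563 genes on the arrays with a window, and the SREBP core in 1 of 20 (Hmgcs1, first base at −137 from the start), against 1.39%. The 2 genes with no CCAAT box in any window were Scap and Mbtps1. The window of Insig2 shown holds 3 boxes and its other windows 0, whereas the single window of Insig1 holds 1. Which start is used in these samples was not tested. A match describes the sequence and is not evidence of binding, and genes with more annotated starts had more bases searched. By window, a CCAAT box was in 67.9% of the 28 windows of the 20 genes, against 37.4% of 19116 on the arrays.

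Related sterol and lipid genes were examined in 8 further lists, none of which had a gene past an adjusted p of 0.05 with the block. Without it, limma's adjusted p was under 0.05 in 3 uptake genes and in 2 each of fatty acid synthesis and the rest of sterol synthesis. The isoprenoid, sterol sensing, efflux and esterification lists had 1 each and the oxysterol list 0. Over all genes, 12.0% were called lower and 6.19% higher in that fit. Their counts stand beside 39.5% of all genes lower and 22.6% higher in both experiments, and no list was tested against the rest. Of 9 genes that use or transfer isoprenoids, 7 were lower after UVB in both experiments and 0 were higher (median −0.095, against −0.025 over all genes). Rabggtb, a subunit of the Rab geranylgeranyl transferase, had 8.52 and 8.48 after UVB, against 8.64 and 8.68 in control, or −0.16 (unadjusted p = 0.0458 and adjusted p = 0.357 in limma). Ggps1, geranylgeranyl diphosphate synthase, had −0.17 in experiment 1 and −0.11 in experiment 2, and is also counted among the 5 measured genes of the rest of sterol synthesis, of which 2 were lower in both. The other of those 2 was Idi2, whose low signals of 4.57 to 4.90 placed it at the percentile of 7.0 of all genes. Of 7 genes of sterol sensing and turnover, 4 were lower in both, with Ufd1, a cofactor of protein extraction from the endoplasmic reticulum, at −0.23 in both experiments (unadjusted p = 0.0106 and adjusted p = 0.357 in limma), and Syvn1, a ubiquitin ligase of the same organelle, at −0.065. Of 14 genes of fatty acid synthesis that SREBP-1 controls, 7 were higher in both experiments and 2 lower (against 22.6% and 39.5% of all genes), with a median of 0.04. Gpam, which starts glycerolipid synthesis, had 8.98 and 8.99 after UVB, against 8.87 and 8.86 in control, or 0.12 (limma's unadjusted p = 0.0436). Scd1, a stearoyl-CoA desaturase, had 0.07 and 0.16.

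Sterol uptake and export genes had differences of either sign. Of 9 genes of uptake and lysosomal transport, 3 were lower and 4 higher in both experiments, among them Stard3, a sterol transfer protein of late endosomes, at −0.12 and Vldlr, a lipoprotein receptor, at 0.095. Of 7 genes of efflux and of the liver X receptor (LXR), 3 were higher and 2 lower in both. Abcg4, a sterol exporter, had 8.75 and 8.72 after UVB, against 8.37 and 8.41 in control, or 0.345 (unadjusted p = 0.00812 and adjusted p = 0.357 in limma). Apoe, the apolipoprotein that accepts exported cholesterol, had 12.27 and 12.52 after UVB, against 12.05 and 11.80 in control, or 0.47. Apoe is also on the Müller glia list and is itself 1 of the 4 of its 5 genes that were higher in both experiments. The others were Glul (0.14 and 0.40), Slc1a3 (0.22 and 0.71) and Rlbp1, which is also on the retinal pigment epithelium list. Aqp4 had −0.02 and 0.11. The part of Müller glia in the difference of Apoe was not tested. Of 8 genes of oxysterols and sterol breakdown, 3 were higher and 4 lower in both, with Ch25h, which makes an oxysterol that suppresses SREBP processing, at 0.37 and 0.15, and Hsd3b7, an enzyme of bile acid synthesis, at a mean of −0.075. Of 2 measured genes of esterification, Lcat, which esterifies cholesterol in plasma, was at −0.07 in both experiments and Nceh1, a cholesteryl ester hydrolase, at −0.05 and 0.17.

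**Figure D4:**
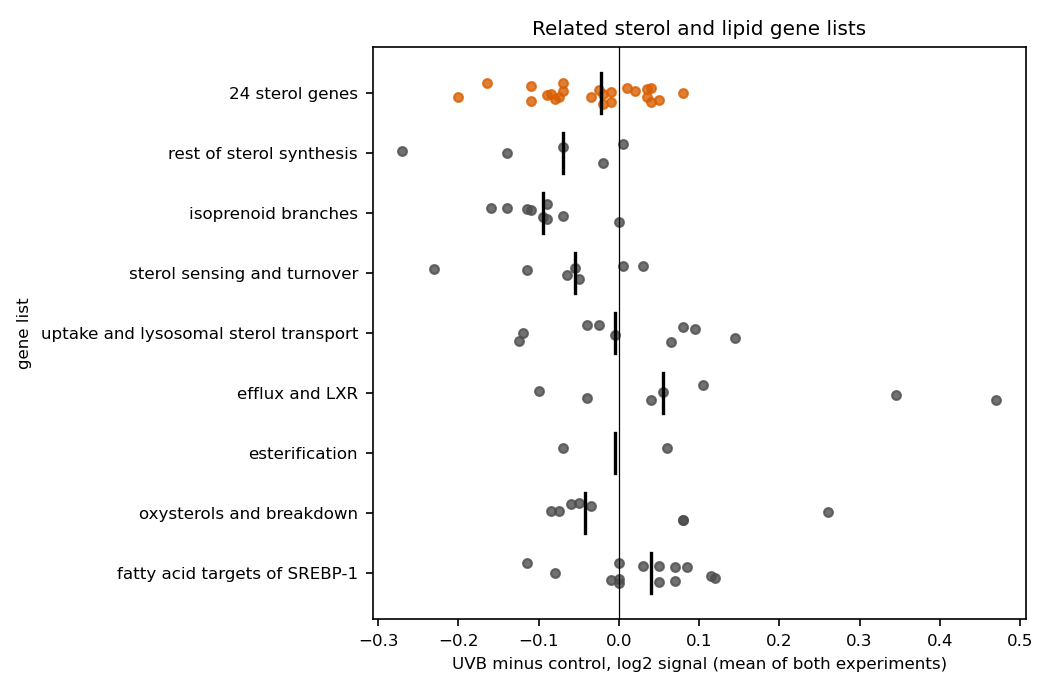
Mean difference in log2 signal, UVB minus control (horizontal), for the 24 sterol genes (top row, orange) and 8 related lists (rows below), with a point per gene and a bar at the median. The isoprenoid list lies at or left of 0 in all of its 9 genes, and Apoe (0.47) and Abcg4 (0.345) are the points farthest right.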

How the data were processed

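RNA of lens epithelia was measured on 4 Affymetrix arrays. The deposited log2 signals ranged from 1.49 to 13.97. Per the submitters' processing notes, the authors used Affymetrix Expression Console, with no version or normalization method named. A human array is given in the methods, whereas the probe sets are annotated to mouse genes. Of 28944 probe sets, 21789 had 1 gene symbol, 1621 several and 5534 none. Array medians were 7.22 and 7.21 after UVB, against 7.19 and 7.20 in control. The 75th percentiles were 8.82 and 8.83 after UVB, against 8.85 and 8.84 in control. The number of arrays limits the precision of each value.

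Experiment numbers come from the sample titles, in which experiment 1 carries none. The methods place both eyes of the same mice in an experiment, and arrays with the same number deviated from the means of their groups in opposite directions (r = −0.998), which equal experiment means produce. UVB was compared with control in R 4.3.3 by limma 3.58.1 (two-sided, experiment as a block, Benjamini-Hochberg over all probe sets). The fits were tested on simulated data. That test does not show how well the p-values hold in these arrays. The p-values measure only the spread between these arrays, which may be technical. In limma the spread of each gene is moderated by that of all probe sets (1.179 prior degrees of freedom, against 1 residual). The differences of Mvk and Ufd1 were equal in both experiments, so that their standard error of 0.0273 comes from the other probe sets.

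The genes, lists and tests were chosen with earlier results of these data known. Values in every array are given for the genes with the 3 highest and 3 lowest signals, the 5 per direction with the largest differences of 1 sign, those with an unadjusted p under 0.05, the 5 whose experiments differ most and the SREBP control genes. Mvk, named for its call without the block, and Hmgcs1 were added after their values were seen. From the other lists, the 2 genes with the smallest p are named, and the tissue markers are given as lists. The corneal genes were named outside this rule, for their difference between the experiments. Alternatives were no block, other scalings, other priors, an unmoderated test, a level filter, averaged probe sets and leaving out each array.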

Additional observations from a re-analysis of the deposited data

How the results depend on the processing

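Without the replicate block, 3 of the 24 genes had an adjusted p under 0.05 (Fdft1, Insig2 and Mvk) and 9 an unadjusted p under 0.05 (37.5%, against 38.7% of all genes), against 0 and 1 with it (4.17%, against 13.2% of all genes), and over all genes the adjusted count was 3628 against 0. The paired t-test without moderation gave 1, Mvk, whose differences were equal after rounding, and 841 over all genes, and the robust prior gave 0 of the 24 and 75 over all genes. Other settings gave 0. An unadjusted p under 0.05 was reached by 2 genes with arrays centred on their medians (Dhcr7 and Insig2; 15.2% of all genes), 3 with only probe sets above the median level (12.5%, against 18.4%), 5 with an intensity trend (20.8%, against 14.4%) and 2 with a robust prior (8.33%, against 16.3%). Leaving out 1 array, without the block since no residual degree of freedom is otherwise left, gave 3 without UVB array 2, 4 without control array 2 and 5 without either array of experiment 1 (12.5% to 20.8%, against 18.9% to 19.2% of all genes), and 0 at the adjusted p. The lone array is assumed to vary like the other group. Genes higher in both experiments numbered 2 (against 22.6% of all genes). They numbered 5 with the 75th percentiles set equal (against 29.0%) and 5 with quantile normalization (against 27.1%). Genes lower in both numbered 12, 8 and 10 in these 3 settings, against 39.5%, 31.5% and 36.9% of all genes. The median difference stayed between −0.05 and −0.0025 in all settings. Hmgcs1 turned to 0.01 with the 75th percentiles set equal and to 0.005 with quantile normalization, Msmo1 to 0.01 with either, and Ebp to −0.01 with median centring. With the block, leaving out an array leaves 1 experiment, and the ranges were −0.04 to 0.02 for Hmgcs1, −0.01 to 0.09 for Idi1 and Lss, −0.01 to 0.11 for Sqle, −0.06 to 0.04 for Msmo1, −0.06 to 0.02 for Nsdhl, −0.04 to 0.08 for Hsd17b7, −0.04 to 0.06 for Ebp, −0.01 to 0.08 for Srebf2, −0.12 to 0.05 for Stard4 and −0.05 to 0.17 for Nceh1. The cause of these changes was not tested. Counts of signs in both experiments could not be made with an array left out.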
